A study of Homo sapiens with 4 samples.

Results

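The genomic regions described here are the top 1% of 60875 accessible-chromatin peaks in an ATAC-seq table, ranked by mean normalized read count: 407 peaks with a gene symbol and 202 without. They were chosen by that mean alone, with ties ordered by start position, so their high counts are a description and not a result. The last peak inside the limit lay at the start of PPOX, with a mean count of 451.8, and the first outside it lay at LOC730183, with 451.6 per the authors' deposited table. The 2 peaks before PPOX (LOC105375744, 452.0, and FNIP1, 452.2) and the 2 after LOC730183 (TRIM28, 451.6, and SEPTIN10, 451.2) were as close to the limit per the authors' deposited table. Together these peaks held 9.39% of the summed mean counts of the table.

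The study asked which chromatin features of cardiac precursor cells go with a high or a low final share of cardiomyocytes. Cells of WTC11, a widely used line of human induced pluripotent stem cells with the wild-type genotype, were differentiated towards cardiac progenitors and harvested on day 6. There were 4 libraries, 2 from cultures of high and 2 from cultures of low terminal purity, each from 50000 to 100000 cells and read as paired ends of 42 bp. The authors compared the 2 groups peak by peak, and their table gives for each peak a mean count over all libraries, a log2 fold change with its standard error (SE), and p-values, but no count per library. Sequencing depth and the values of single libraries are therefore unknown here, and nothing states further whether the replicates came from separate differentiations, so the p-values rest on the spread among the 4 libraries alone. The table marks peaks Up or Down without naming the numerator. All 2959 peaks marked Up have a negative log2 fold change, so negative values are called the Up side and positive values the Down side, and neither side is assigned to a purity group. Of 32 marker genes of pluripotent, cardiac and other lineages, 21 had a labelled peak and 0 of these reached the top 1%. The highest was TAGLN at rank 3329, so these peaks do not test the labelled cell type.

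ATAC-seq uses a transposase that cuts where DNA is not wrapped in nucleosomes, so the count at a peak rises with accessibility, and also with the number of copies of the sequence that are mapped to that position. The promoters of housekeeping genes, which most cells transcribe, are usually CpG-rich and open in nearly all cell types. Tandem repeats, among them the ribosomal RNA genes, the satellite arrays around centromeres and the D4Z4 repeats that carry DUX4, exist in many near-identical copies of which a reference assembly holds only some, so reads from all of them can collect on a few annotated intervals. No source used here says how the authors treated reads that map to several places.

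The peaks were sorted by annotation, without use of the fold change. A labelled promoter was a peak with a gene symbol in the table lying within 1000 bp of a RefSeq start of that gene, or of either end where RefSeq's table gave no start. A multi-copy or pericentromeric peak had no symbol and either lay within 2 Mb of the longest gene-free interval of its chromosome, used as a stand-in for the centromeric region, or overlapped a ribosomal, small nuclear or transfer RNA gene. Of the peaks in the top 1%, 351 were labelled promoters, 59 were multi-copy or pericentromeric, and 199 were neither. Of the 407 symbols, 400 were found in RefSeq.

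Promoter sequences are shown for the 4 labelled promoters with the highest mean counts, NDUFA11, CIC, TOMM40 and TMEM87B, and for the 4 that passed the test, LINC00957, KLHL26, PITRM1 and GUK1. They set promoters that passed the test beside promoters that did not, and they show the motifs counted below. Each runs from 250 bases before to 50 after a RefSeq start (GRCh38.p14), read 5′ to 3′ on the strand of the gene. Capitals mark matches, on either strand, to CCAAT (the CCAAT box), GGGCGG (the GC box), CCGGAAG (the core bound by ETS factors), the YY1 or the NRF1 motif, TGACGTCA (the cAMP response element), CACGTG (the E-box) or TATAAA (the TATA box). The windows lie at chr19:5903741-5904040 on the minus strand (NDUFA11), chr19:42268280-42268579 on the plus strand (CIC), chr19:44891004-44891303 on the plus strand (TOMM40) and chr2:112055019-112055318 on the plus strand (TMEM87B). Those of the changed promoters lie at chr7:44038799-44039098 on the plus strand (LINC00957), chr19:18636778-18637077 on the plus strand (KLHL26), chr10:3172792-3173091 on the minus strand (PITRM1) and chr1:228139834-228140133 on the plus strand (GUK1).
NDUFA11: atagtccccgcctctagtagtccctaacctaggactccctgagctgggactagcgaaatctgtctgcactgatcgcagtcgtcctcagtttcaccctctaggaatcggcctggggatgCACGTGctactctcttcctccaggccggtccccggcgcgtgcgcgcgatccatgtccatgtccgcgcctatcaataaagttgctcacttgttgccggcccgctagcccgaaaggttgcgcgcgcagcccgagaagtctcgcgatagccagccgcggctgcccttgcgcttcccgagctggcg
CIC: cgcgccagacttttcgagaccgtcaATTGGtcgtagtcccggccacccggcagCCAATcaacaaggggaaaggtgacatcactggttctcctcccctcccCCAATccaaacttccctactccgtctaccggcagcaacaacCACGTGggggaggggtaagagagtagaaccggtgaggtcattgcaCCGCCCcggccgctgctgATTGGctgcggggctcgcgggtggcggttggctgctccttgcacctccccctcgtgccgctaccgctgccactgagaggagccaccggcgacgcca
TOMM40: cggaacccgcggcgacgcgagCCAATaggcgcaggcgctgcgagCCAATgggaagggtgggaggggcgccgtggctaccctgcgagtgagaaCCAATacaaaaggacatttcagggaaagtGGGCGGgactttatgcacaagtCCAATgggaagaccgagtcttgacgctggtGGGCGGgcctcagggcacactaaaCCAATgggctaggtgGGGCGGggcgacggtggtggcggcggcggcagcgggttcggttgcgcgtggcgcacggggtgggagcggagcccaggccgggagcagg
TMEM87B: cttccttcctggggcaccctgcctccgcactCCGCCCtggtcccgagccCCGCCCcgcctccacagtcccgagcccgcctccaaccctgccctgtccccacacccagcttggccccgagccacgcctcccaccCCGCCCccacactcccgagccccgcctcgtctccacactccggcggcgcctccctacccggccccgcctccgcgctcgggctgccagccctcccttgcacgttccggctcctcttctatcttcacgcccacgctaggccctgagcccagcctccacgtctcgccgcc
LINC00957: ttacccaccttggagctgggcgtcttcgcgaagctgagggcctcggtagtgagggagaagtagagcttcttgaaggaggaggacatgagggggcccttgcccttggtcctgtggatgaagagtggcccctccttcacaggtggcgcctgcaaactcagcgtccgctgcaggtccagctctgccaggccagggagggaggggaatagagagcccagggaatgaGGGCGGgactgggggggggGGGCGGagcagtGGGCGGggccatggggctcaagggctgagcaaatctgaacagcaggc
KLHL26: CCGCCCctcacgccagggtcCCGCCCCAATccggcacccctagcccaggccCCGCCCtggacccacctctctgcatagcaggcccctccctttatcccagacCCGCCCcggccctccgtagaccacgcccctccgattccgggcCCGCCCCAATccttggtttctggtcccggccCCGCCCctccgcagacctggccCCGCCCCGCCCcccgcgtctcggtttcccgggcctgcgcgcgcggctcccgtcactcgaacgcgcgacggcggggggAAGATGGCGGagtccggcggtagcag
PITRM1: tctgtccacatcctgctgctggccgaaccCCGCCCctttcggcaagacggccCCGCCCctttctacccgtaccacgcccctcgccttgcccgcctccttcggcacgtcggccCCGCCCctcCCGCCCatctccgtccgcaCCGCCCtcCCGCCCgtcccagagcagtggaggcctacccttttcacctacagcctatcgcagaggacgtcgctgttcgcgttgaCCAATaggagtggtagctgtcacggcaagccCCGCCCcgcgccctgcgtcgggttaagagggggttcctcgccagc
GUK1: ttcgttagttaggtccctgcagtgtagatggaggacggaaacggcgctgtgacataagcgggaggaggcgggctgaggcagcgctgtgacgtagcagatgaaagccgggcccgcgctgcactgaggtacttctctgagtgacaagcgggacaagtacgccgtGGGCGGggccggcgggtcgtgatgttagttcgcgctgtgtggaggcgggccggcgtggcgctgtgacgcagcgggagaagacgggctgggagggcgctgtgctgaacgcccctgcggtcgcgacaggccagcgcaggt

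TOMM40, the channel of the mitochondrial outer membrane through which proteins are imported, has 5 CCAAT boxes and 3 GC boxes in its window. CIC, a transcriptional repressor downstream of growth factor signalling, has 4 CCAAT boxes, 1 GC box and 1 E-box. NDUFA11, a subunit of respiratory complex I, has 1 E-box and no other match, and TMEM87B, a transmembrane protein, has 3 GC boxes. Among the changed promoters, KLHL26, a Kelch-like protein, has 8 GC boxes, 2 CCAAT boxes that overlap GC boxes, and the YY1 motif. PITRM1, a peptidase of the mitochondrial matrix, has 7 GC boxes and 1 CCAAT box, the long noncoding RNA LINC00957 has 3 GC boxes, and GUK1, guanylate kinase, has 1 GC box. The LINC00957 peak begins 30 bp past the start of that gene. Most of its window, with all 3 GC boxes, therefore lies outside the peak that changed. A match is a run of letters and not a shown binding site.

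Labelled promoters had log2 fold changes close to 0, whereas most multi-copy or pericentromeric peaks lay on the Down side. Among the 351 labelled promoters, 4 passed an adjusted p under 0.05 on the Up side, against 0 on the Down side, with a median log2 fold change of -0.06. Among the 59 multi-copy or pericentromeric peaks, 36 passed on the Down side (61.0%), against 1 on the Up side, with a median of 1.08, a 2.12-fold difference. Over all 60875 peaks, 2.36% passed on the Up side, against 3.64% on the Down side, with a median of 0.00146. Over the whole top 1%, 11 passed on the Up side (1.81%), against 59 on the Down side (9.69%). By the authors' own marking, which asks for a log2 fold change beyond 1 and an unadjusted p, 2 of these peaks were Up and 52 Down, against 4.86% and 4.98% of all peaks. None of the 59 Down-side peaks carried a symbol: 36 were multi-copy or pericentromeric, 22 lay over 10 kb from any protein-coding gene, and the other overlapped DUX4. Of these 22, 10 lay in a single block on chromosome 20. Another 6 lay between or beyond the ribosomal RNA genes of chromosome 21. The class as defined leaves both out. Of the 11 on the Up side, 5 carried a symbol and 9 touched a protein-coding gene. The adjusted p-values are those of DESeq2 with Benjamini-Hochberg adjustment per the authors' deposited table. The groups of peaks were not tested against each other, because all peaks come from the same 4 libraries and are not replicates. In bulk libraries, a change in the share of cells with an open site and a change of openness per cell cannot be told apart.

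**Figure D1:**
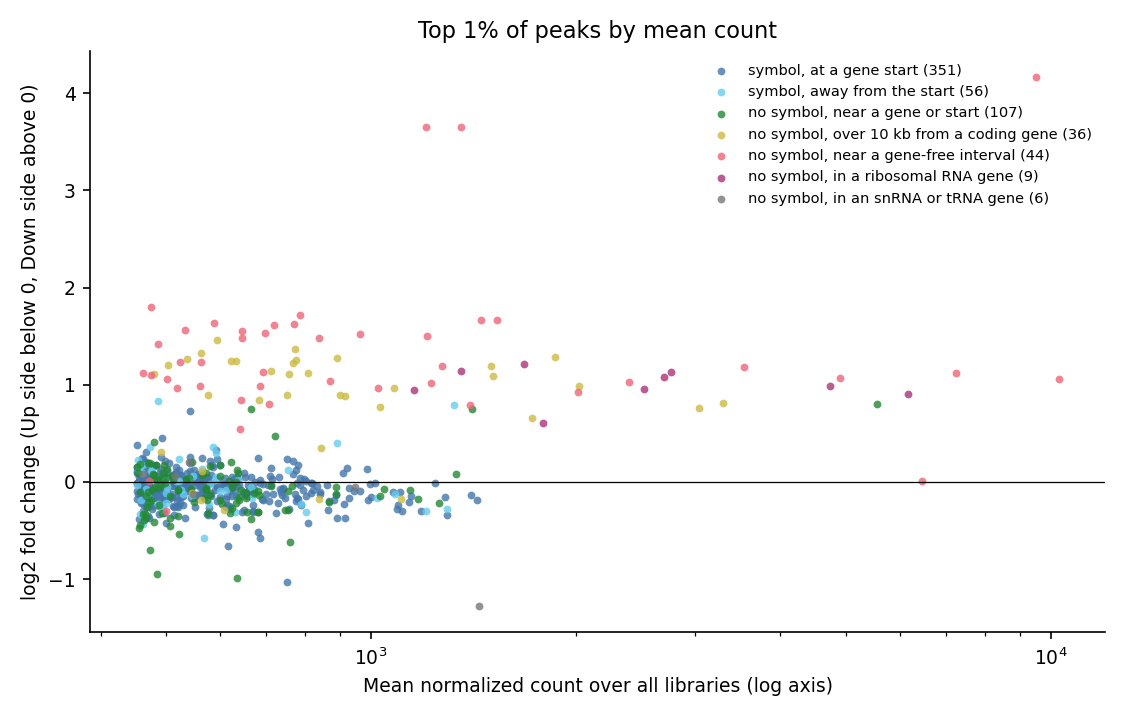
Log2 fold change (vertical axis, Up side below 0 and Down side above 0) against mean normalized count (horizontal axis, log scale) for the top 1% of peaks, in which each point is 1 peak coloured by its position. Peaks with a symbol lie close to 0 and reach at most 1429.9 counts, and the points above a log2 fold change of 1 are all peaks without a symbol.

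**Figure D2:**
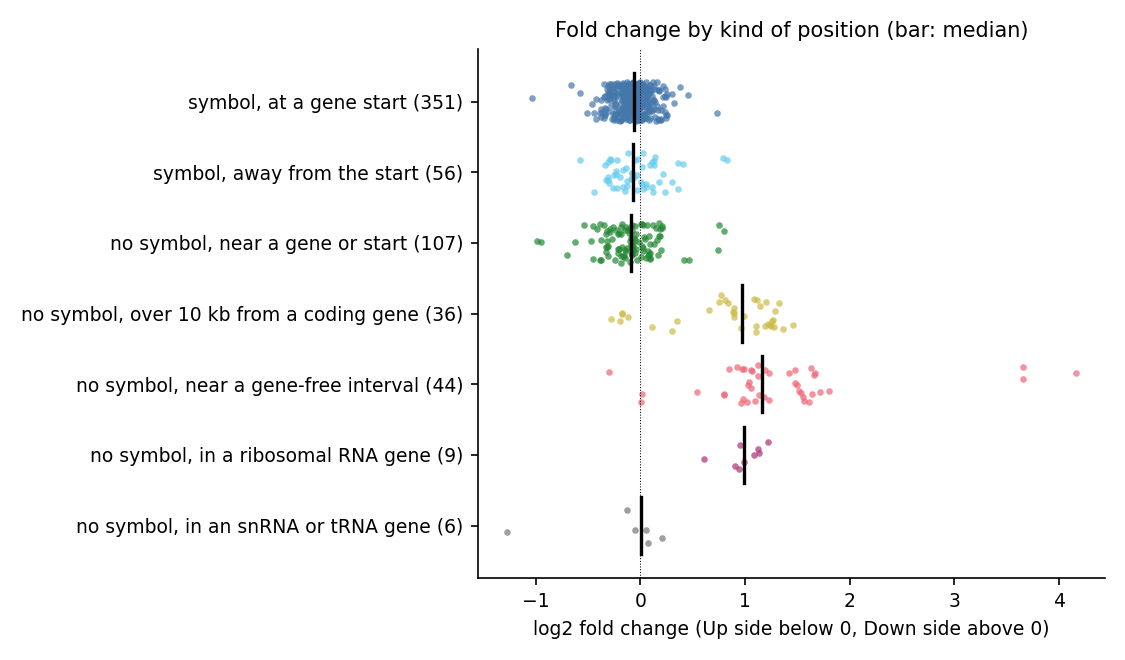
Log2 fold change (horizontal axis) of every peak, 1 point each, by kind of position with the number of peaks in parentheses; the black bar is the median and vertical scatter has no meaning. Medians are near 0 for the peaks at or near genes, and are 0.98, 1.16 and 0.99 for peaks over 10 kb from a coding gene, near a gene-free interval and in ribosomal RNA genes.

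The labelled promoters were narrow in their fold changes. The middle of the distribution, from the lower to the upper quartile, ran from -0.16 to 0.03, 253 of 351 (72.1%) lay within 1 SE of 0, and 338 (96.3%) within 2 SE. Only 5 had a log2 fold change beyond 0.50 in size. Of these 351 peaks, 242 were on the negative side and 109 on the positive. The median moved from -0.06 here to 0.00454 in the 388 labelled promoters among the next 1% of peaks by rank, and was 0.04 in all 9268 labelled promoters outside the top 1%, where 66 passed on the Up side, against 36 on the Down side. The median SE was 0.18 inside and 0.27 outside. The smallest change that passed anywhere in the top 1% was -0.51.

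The highest labelled promoter, NDUFA11, lay 55 bp from the start of that gene and overlapped VMAC, the only RefSeq gene there. It had a mean count of 1429.9 and a log2 fold change of -0.18 ± 0.15 (SE) per the authors' deposited table (adjusted p = 0.662, DESeq2). CIC had 1403 and -0.13 ± 0.16, TOMM40 had 1295 and -0.34 ± 0.15, and TMEM87B had 1286 and -0.15 ± 0.16 per the authors' deposited table, with adjusted p from 0.207 (TOMM40) to 0.807 (CIC). None of the 4 passed the test, although all of them leaned to the Up side. The 4 labelled promoters that passed had lower mean counts than these. LINC00957 had a mean count of 752 and a log2 fold change of -1.03 ± 0.21 (adjusted p = 0.000122) per the authors' deposited table, the largest change of the class. KLHL26 had -0.66 ± 0.18 (adjusted p = 0.00825), PITRM1 -0.57 ± 0.18 (0.0272) and GUK1 -0.51 ± 0.17 (0.0374) per the authors' deposited table, with mean counts of 616, 685 and 681. GUK1 no longer passed when the fold changes were recentred on the running median over peaks of similar count (-0.48). The largest positive values belonged to LINC01986, 0.73 ± 0.96 in a peak that starts at position 10416 of chromosome 3, and ACIN1, a splicing-associated protein, 0.45 ± 0.17 (adjusted p = 0.0982), and neither passed per the authors' deposited table.

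Gene lists by function held 69 of the 407 labelled peaks, and among the 69 only LINC00957 passed. Of these 69, 34 were in the lists of long noncoding RNAs and of microRNA and small nucleolar RNA symbols. The splicing list had 6 of its 49 peaks in the top 1% (12.2%), the highest share of any list, with log2 fold changes from -0.42 (SF3B6, a subunit of the U2 particle) to 0.30 (U2AF2, which binds the polypyrimidine tract), and 0 passed. In the authors' deposited table SNRPD2, a core protein of spliceosomal particles, had the highest mean count of this list, 883, at -0.19 ± 0.17. The chaperone list held 5 of 54 and the respiratory chain list 5 of 62, with 0 passed in both. CYCS, cytochrome c, stood at -0.06 ± 0.18, and DNAJB1, a co-chaperone of HSP70, at 0.20 ± 0.18 per the authors' deposited table. Of the zinc finger list 11 of 424 peaks reached the top 1% and 0 passed. Here ZBTB20, a transcriptional repressor, had the highest mean count, 802, and a log2 fold change of 0.01 ± 0.16 per the authors' deposited table. Long noncoding RNAs gave 21 of 913 peaks, 1 of them (LINC00957) past the test, and the microRNA and small nucleolar RNA symbols 13 of 466, with 0 passed. The remaining lists gave few peaks: 3 of 106 for proteasome and ubiquitin, 2 of 42 for translation factors, and 1 each for cytosolic ribosomal proteins (RPL18, -0.35 ± 0.19), transcription machinery (POLR2I, -0.04 ± 0.19) and histones (H2AZ2, 0.13 ± 0.17), per the authors' deposited table. Mitochondrial ribosome genes gave 0 of 60. None of these passed. By construction 1% of all peaks are in this set, but the lists hold only peaks with a symbol, which are more frequent here. Of the peaks with a symbol, 407 were inside the top 1% and 12696 outside it. The shares for these lists ran from 0% to 12.2%.

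The promoter windows of the labelled promoters shared a feature that the choice by count did not use. A start was in the RefSeq table for 299 of the 351, and 70.9% of these windows held a CCAAT box on either strand, against 36.0% of the 7305 labelled promoters outside the top 1% and 34.6% of all 35116 starts. The share fell along the ranking: 78.6% in ranks 1 to 100 (28 windows), 76.2% in ranks 101 to 300, 66.5% from rank 301 to the limit, 60.2% in the next 1% of peaks, 51.2% in ranks 1219 to 3044, 40.8% in ranks 3045 to 6088, and 28.4% in the lower part of the table from rank 30439. The trimeric factor NF-Y binds the CCAAT box, and SP1 and related factors bind the GC box. The GC box was in 84.3% of these windows, against 73.4% in the other labelled promoters and 45.0% of all starts. The ETS core was in 14.7%, against 18.2% and 10.3%, and the E-box in 12.4%, against 9.88% and 7.26%. The NRF1 motif was in 0.669%, against 2.64% and 1.24%, and the YY1 motif in 3.34%, against 2.78% and 1.20%. The TATA box was in 3.68%, against 5.02% and 11.5%, and the cAMP response element in 3.34%, against 3.38% and 1.85%.

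**Figure D3:**
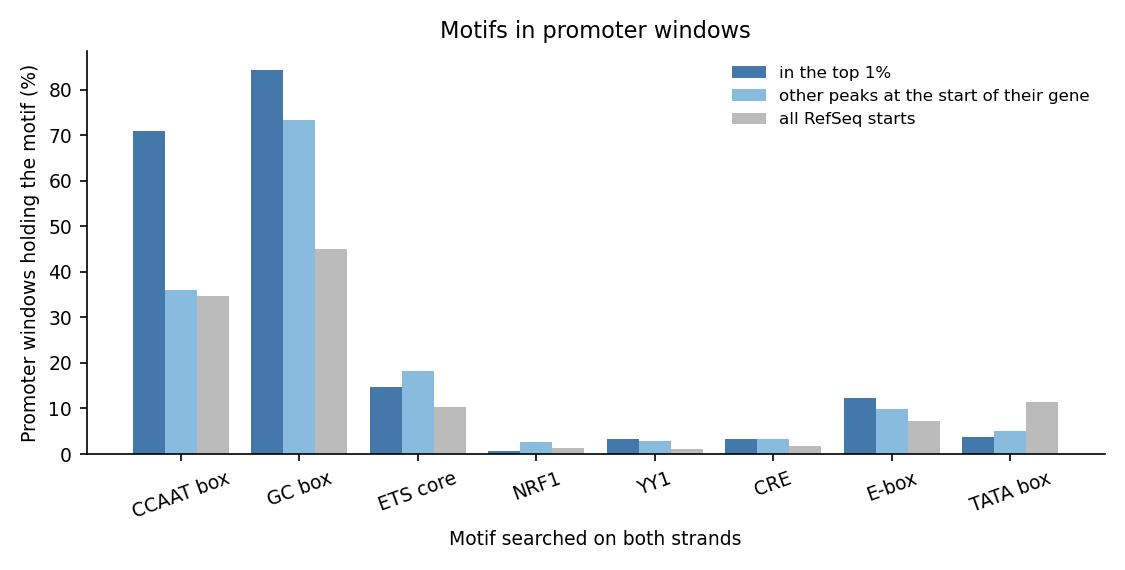
Share of promoter windows (vertical axis, %) that hold each motif on either strand (horizontal axis), for the 299 labelled promoters in the top 1%, the 7305 labelled promoters outside them and all 35116 RefSeq starts. The CCAAT box stands at 70.9% in the first set and at 36.0% and 34.6% in the others, and no other motif shows a gap of that size between the first 2 sets.

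Base composition did not follow the same pattern. The median GC content of the windows was 65.0% in the top 1% and 66.3% in the other labelled promoters, with a median of 26 and 27 CpG sites, against 58.7% and 14 for all starts. Starts of genes on opposite strands, the arrangement of a bidirectional promoter, were found at 117 of the 299 peaks (39.1%), against 22.2% of the other labelled promoters, but at 41.7% of those in the next 1% of peaks. The peaks were also wide, with a median of 897 bp against 650 bp. The fold change differed little by these features. Windows with a CCAAT box (212) had a median log2 fold change of -0.04 and those without (87) of -0.11, with quartiles of -0.14 to 0.05 and -0.20 to -0.01, and 2 peaks passed in each. These are descriptions over promoters of the same libraries, with no test.

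Several of the highest labelled promoters belong to a multi-copy gene family, which was picked out after the values were seen. FAM86 genes and pseudogenes are near-identical copies of EEF2KMT, the lysine methyltransferase of elongation factor 2. In the top 1%, 13 peaks lay at copies of FAM86 or the neighbouring FAM85, 3 of them without a symbol. All 13 were on the Up side, from -0.42 to -0.17 with a median of -0.28, and 0 passed. EEF2KMT itself, at chr16:5097653-5098811, had a mean count of 1109 and a log2 fold change of -0.30 ± 0.15 (adjusted p = 0.303, DESeq2) per the authors' deposited table. Reads of 42 bp may not separate these copies, so their values are uncertain as 13 measurements. Outside the top 1%, 12 further peaks at these genes had mean counts of at most 317 and values from -1.38 to 0.44, 10 negative and 2 positive. Of these 1 passed, on the Up side.

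The ranking was led by peaks without a symbol: 26 stood above NDUFA11. The 20 highest held 18.4% of the counts of the whole top 1%, and all of them had a positive log2 fold change, of which 13 passed. The first by rank, chr5:49601386-49602901, had a mean count of 10265 and a log2 fold change of 1.06 ± 0.15 (adjusted p = 8.39e-10) per the authors' deposited table. It belongs to 6 peaks in 67.9 kb inside the longest gene-free interval of chromosome 5, and these peaks held 6.61% of the counts of the top 1%. These 6 ran from 0.93 to 1.19, and 5 passed. Along the ranking, the share of peaks without a symbol that passed on the Down side was 47.4% in ranks 1 to 100, 43.8% in ranks 101 to 200, 15.6% in ranks 201 to 300, 26.9% in ranks 301 to 400, 14.8% in ranks 401 to 500 and 7.14% from rank 501 to the limit. It was 7.45% in the next 1% of peaks, 3.55% in ranks 1219 to 3044 and 6.01% in ranks 12176 to 30438, so the fall was not steady. Rank is set by a mean over both groups, so a peak can rank high through a single group, and the trend was not tested. Among peaks with a symbol it was 0% in each of the 6 bins that make up the top 1%.

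**Figure D4:**
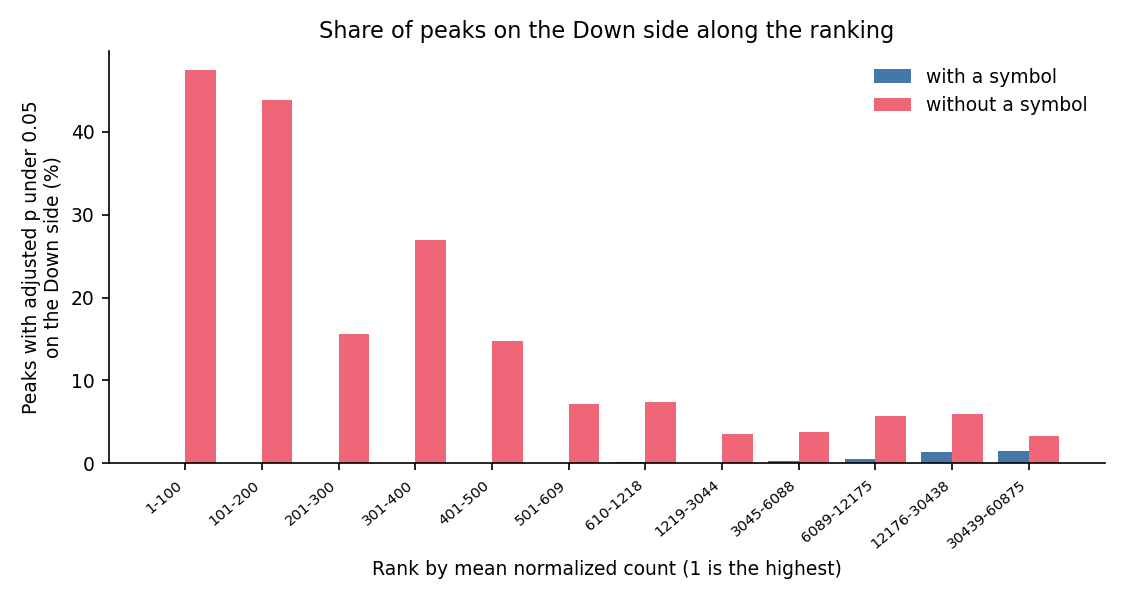
Share of peaks on the Down side with an adjusted p under 0.05 (vertical axis, %) by rank of mean normalized count (horizontal axis, rank 1 highest, bins of unequal width), for peaks with and without a symbol. Peaks without a symbol stand at 47.4% in the first bin and 7.14% in the last bin of the top 1%, with a rise from 15.6% to 26.9% between the third and the fourth bin, while the bars for peaks with a symbol are at 0% in these bins.

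The ribosomal DNA on chromosome 21 gave the largest block. All 20 peaks of the table between the 8.0 and 8.5 Mb marks (chr21:8208750-8465589) were in the top 1%, and they held 8.29% of its counts. This stretch carries the RefSeq genes RNA45SN2, RNA45SN3 and RNA45SN1, each a precursor of the 18S, 5.8S and 28S ribosomal RNAs. It also holds sequence between and beyond these genes. All 20 had positive log2 fold changes, from 0.61 to 1.46, and 13 passed. The 5 peaks over 28S genes all passed, with values from 0.91 to 1.22 and SE from 0.14 to 0.17. The highest of these, chr21:8401534-8402163 over RNA28SN3, had a mean count of 6169 and a log2 fold change of 0.91 ± 0.17 (adjusted p = 1.55e-05) per the authors' deposited table. The peak with the smallest adjusted p of the block, chr21:8443126-8443480 over RNA28SN1, had 1.13 ± 0.14 (1.18e-11) per the authors' deposited table. Of 5 peaks elsewhere in the 45S genes, 2 passed, and their values ran from 0.61 to 0.99. The peak 773 bp from the lower end of RNA45SN1, at chr21:8433995-8434376, had a mean count of 4738 and a log2 fold change of 0.99 ± 0.15 (adjusted p = 7.22e-08) per the authors' deposited table. Of 10 peaks outside the 45S genes, 6 passed, with values from 0.81 to 1.46. Some lie between these genes and others beyond the end of RNA45SN1. None of the 10 overlaps a ribosomal RNA gene of RefSeq, so they count among the 199 other peaks. The only peak of the block with a symbol, RNA45SN2, stood at 0.79 ± 0.32 and did not pass (adjusted p = 0.134) per the authors' deposited table. SE separated the peaks of this block: 10 of 10 with an SE under 0.30 passed, and 3 of 10 with a larger SE. Reads of 42 bp may not separate copies of these genes, so the values are uncertain as 20 measurements.

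Peaks of the same block had similar fold changes in the larger blocks near centromeres. Peaks without a symbol near a gene-free interval, in ribosomal RNA genes, over DUX4 or over 10 kb from a protein-coding gene were joined wherever they lay within 200 kb of each other. These 94 peaks fell into 38 blocks, and 25 blocks with 80 peaks had a median above 0.50. Peaks in repeated sequence may share reads, so their counts are uncertain as separate measurements. On chromosome 20, 10 peaks in 134 kb (chr20:31053610-31187418) all passed, with values from 0.97 to 1.33. They lie over 2 Mb from the gene-free interval and so count among the 199 other peaks. On chromosome 17, 7 peaks at chr17:21969157-21988912 all passed, from 0.97 to 1.23. On chromosome 16, 6 peaks at chr16:34573879-34595635 ran from 1.42 to 1.64 and 5 passed, and 3 at chr16:46388560-46399586 ran from 1.48 to 1.66 and 2 passed. On chromosome 1, 3 peaks at chr1:143184601-143264859 ran from 1.48 to 1.72 and all passed. The last of these values, at chr1:143214589-143214890, was the largest among the peaks of the top 1% that passed (1.72 ± 0.56, adjusted p = 0.0393) per the authors' deposited table.

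SE differed between these blocks. It was 0.17 to 0.21 for the 10 peaks of chromosome 20 and 0.16 to 0.20 for the 7 of chromosome 17, but 0.43 to 0.58 for the 6 at chr16:34573879-34595635 and 0.46 to 0.56 for the 3 on chromosome 1. The largest fold changes of the top 1% had its largest SE and did not pass. The second peak by rank, chr3:93470252-93470920, had a mean count of 9499 and a log2 fold change of 4.17 ± 1.49 (adjusted p = 0.0728) per the authors' deposited table. A pair of peaks at chr4:49709272-49711931 had 3.65 ± 1.39 each (adjusted p = 0.103) per the authors' deposited table. In the top 1%, 42 peaks had an SE of 0.30 or more, against a median of 0.18, and 41 of these were on the positive side. Leaving such peaks out of the multi-copy or pericentromeric class left 35 peaks, of which 25 passed on the Down side, against 1 on the Up side, with a median of 0.99. Which library gives a large SE was not tested, since the table holds no counts per library.

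**Figure D5:**
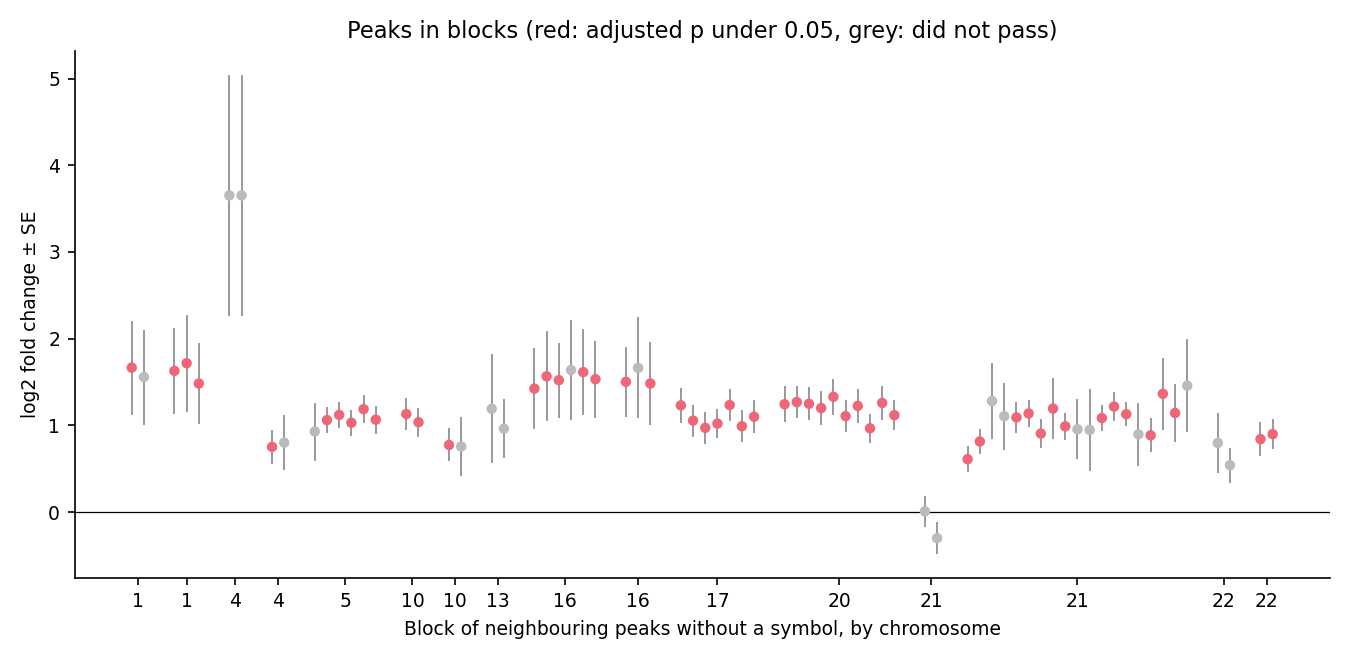
Log2 fold change with its SE (vertical axis) of the peaks without a symbol that lie in blocks of more than 1 peak, in genome order within each block and labelled by chromosome (horizontal axis); red points have an adjusted p under 0.05 and grey points do not. Blocks on chromosomes 5, 17 and 20 lie near 1 with short bars, those on 1 and 16 near 1.5 with longer bars, and the pair on chromosome 4 at 3.65 with bars of 1.39, while the first of the chromosome 21 blocks lies at or below 0.

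Not every peak of this kind was on the Down side. The fourth peak by rank, chr21:6369002-6371510, overlaps the uncharacterized gene LOC102724701. On chromosome 21 the longest gene-free interval is the stretch before the first gene. This peak is in the class only by lying 1358548 bp from that interval, so it is not shown to lie by the centromere. It had a mean count of 6468 and a log2 fold change of 0.01 ± 0.18 (adjusted p = 0.994) per the authors' deposited table. Its neighbour stood at -0.30 ± 0.18 per the authors' deposited table, and the same arm carried Down-side peaks at chr21:7257814-7259476 (0.99 ± 0.16) and chr21:7926099-7926685 (1.28 ± 0.17). Both Down-side peaks lie over 2 Mb from that interval and so count among the other peaks. Of the 44 peaks near a gene-free interval, 43 had a positive value and 29 passed, all on the Down side. Outside the top 1%, peaks of the multi-copy or pericentromeric class were lower and less uniform. There 921 had a median of 0.08, 67 passed on the Down side (7.27%), against 24 on the Up side. In the next 1% of peaks, 6 of 15 passed on the Down side, with a median of 0.66. The mean count pools both groups, so a peak can enter the top 1% through a high count in a single group. How much this adds to the contrast was not tested.

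DUX4, a transcription factor of early embryos whose gene sits in the D4Z4 repeats at the end of chromosome 4, overlapped 2 of these peaks. The higher, chr4:190178987-190179752, was sixth by rank with a mean count of 5548 and did not pass at 0.80 ± 0.32 (adjusted p = 0.123) per the authors' deposited table. The lower, beginning at position 190177774, had a mean count of 1406 and passed at 0.75 ± 0.19 (0.00456) per the authors' deposited table. A pair of peaks near the end of chromosome 10 (chr10:133687680-133689675) stood at 0.77 ± 0.19 (adjusted p = 0.00253) and 0.76 ± 0.34 (0.210), and a peak over the pseudogene DUX4L44 on chromosome 22 at 0.66 ± 0.35 per the authors' deposited table. The values of these 5 peaks lay between 0.66 and 0.80, and 2 passed. The chromosome 10 pair overlaps no gene of RefSeq, and the 5 were set side by side after their values were seen. Reads may be shared between them, so their values are uncertain as 5 measurements.

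Small RNA genes differed from the ribosomal ones. Of 3 peaks over small nuclear RNA genes and 3 over transfer RNA genes, 0 passed on the Down side. A peak over LOC124904138, annotated as a small nuclear RNA gene on chromosome 17, had a mean count of 1443 and the most negative value of the top 1%, -1.28 ± 0.17 (adjusted p = 2.21e-10) per the authors' deposited table. RNU1-2, a gene of the U1 RNA that recognises 5′ splice sites, stood at -0.05 ± 0.18, and LOC124904613 at -0.13 ± 0.17 per the authors' deposited table. The 3 transfer RNA peaks ran from 0.06 to 0.20. With these 6 left out, the class had 53 peaks, of which 36 passed on the Down side, against 0 on the Up side.

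Among the 199 other peaks, few of those near a gene start passed, and more of those inside genes did. Of 81 without a symbol but within 1000 bp of some RefSeq start, 1 passed, on the Up side, and the median was -0.08. Of 56 with a symbol but away from the start of that gene, 1 passed, labelled GGT7 (a member of the gamma-glutamyltransferase family) but overlapping ACSS2, which makes acetyl-CoA from acetate, at -0.58 ± 0.18 (adjusted p = 0.0339) per the authors' deposited table. Of 21 without a symbol inside a gene, 4 passed on the Up side, against 1 on the Down side (DUX4), and the median size of the log2 fold change was 0.39, against 0.11 in the labelled promoters. The 4 were CHLSN at -0.95 ± 0.19 (adjusted p = 0.000142), MYH9, the heavy chain of non-muscle myosin IIA, at -0.70 ± 0.18 (0.00516), BAIAP3 at -0.62 ± 0.19 (0.0222) and CAMTA1, a transcription activator, at -0.54 ± 0.18 (0.0445), per the authors' deposited table. CAMTA1 no longer passed with recentred fold changes (adjusted p = 0.0613). The 36 over 10 kb from a protein-coding gene had a median of 0.98, and 22 passed, all on the Down side. They include the 10 ribosomal spacer peaks, of which 6 passed, and the 10 of the chromosome 20 block, which all passed. Outside the top 1%, 17295 peaks of this position had a median of -0.01. There 5.17% passed on the Down side, against 2.88% on the Up side.

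The peaks at RASA4 and its copies on chromosome 7 were set side by side after their values were seen. RASA4, a GTPase-activating protein for RAS, has near-identical copies, among them RASA4B and the pseudogenes RASA4CP and RASA4DP. The peak labelled LINC00957 (chr7:44039079-44039566) also overlaps RASA4CP, so its label names only 1 of 2 genes there. A peak without a symbol at RASA4 (chr7:102592579-102592946) had a mean count of 636 and a log2 fold change of -0.99 ± 0.20 (adjusted p = 7.87e-05), per the authors' deposited table, close to the -1.03 of the LINC00957 peak. In RASA4B, a peak at rank 2678, outside the top 1%, stood at -1.01 ± 0.21 (adjusted p = 0.000179), and the peak labelled RASA4DP at -0.25 ± 0.18 (0.553) per the authors' deposited table. The first 3 lay within less than 1 SE of each other on the Up side, and reads may have been shared between them. The 3 other peaks of the table at these genes, all of lower mean count, were positive: 0.32 ± 0.35 at RASA4, and 0.61 ± 0.28 and 0.32 ± 0.41 at RASA4B, none of which passed per the authors' deposited table.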

How the data were processed

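ATAC-seq was done on 4 WTC11-derived libraries, 2 of high and 2 of low purity. The labels name total RNA as the molecule, at odds with that assay. Per the submitters' processing notes, reads were processed with BWA, MACS2 and DESeq2 on GRCh38 (hg38). No source used here gives their versions, the handling of reads that map to several places, or duplicate removal. The deposited table gives, per the file headers, the mean normalized count as a signal pooled over libraries, a log2 fold change and its SE in log2 units, the Wald statistic (a score), the unadjusted p-value and the adjusted p-value. The authors marked peaks Up or Down where the unadjusted p was under 0.05 and the size of the log2 fold change was over 1, as checked on the values, so this marking is looser in p than the adjusted test used here. The statistic equalled the fold change divided by its SE, and the adjusted p equalled a Benjamini-Hochberg adjustment over all 60875 peaks.

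The 609 peaks with the highest mean counts (1% of the table) were taken, matched to RefSeq (GRCh38.p14) and sorted by position with Python 3.11.15, pandas 2.3.3, numpy 2.4.6 and scipy 1.17.1, and plotted with matplotlib 3.10.9. A passed test means an adjusted p under 0.05 in the authors' table, and no peak was tested again except when fold changes were recentred on a running median of 2001 peaks. The recentring was tested on simulated data. Coordinates are those of the table on hg38. RefSeq genes placed on scaffolds (718) were left out, and the gene-free interval includes the stretch before the first gene. Named were the 10 highest peaks, in each class the 3 highest and up to 5 largest changes per side that passed, the peaks at the limit, and examples from each gene list; peaks named as exceptions, blocks or copies of a family were added after their values were seen. The members, classes and lists were chosen with earlier results of these data known. Alternatives changed the threshold, the number of peaks, the windows and the centring. No per-library values were used, so batches, replicate spread and depth were not checked.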

Additional observations from a re-analysis of the deposited data

How the results depend on the processing

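No paired analysis was possible because the table holds no values of single libraries, and leaving out a replicate was not run for the same reason. Of 69 recomputed counts and medians, 61 stayed within a limit: 1.5 times for a count, and the median SE of single peaks for a median. For labelled promoters that SE was 0.18, larger than the size of their median (-0.06). A changed sign would therefore still be within the limit. A change of threshold or marking alone leaves a median as it was, so those medians could not move. The other 8 moved further, under another threshold, marking or set of peaks. Among labelled promoters the 4 that passed became 2 at an adjusted p under 0.01 and 1 under the authors' marking. Among the other peaks the 29 that passed became 17 under that marking, 8 of 142 with no other of these peaks within 50 kb, and 1 of 81 within 1000 bp of a start (a setting chosen after seeing the data). Of the 29, 23 were on the Down side, but only 2 of the 8 without a near neighbour were. Among multi-copy or pericentromeric peaks the 37 of 59 became 65 of 202, with a median of 0.093 in place of 1.08, when every peak without a symbol was counted. They became 59 of 95 when peaks over 10 kb from a protein-coding gene were added, also chosen after seeing the data. Recentring moved the medians by about 0.03, and the peaks that passed on the Up side fell from 11 to 9, with GUK1 and CAMTA1 losing their calls. A median over 25 blocks in place of 59 peaks, also added later, was 0.99. Depth is unknown, so no limit from counting can be given.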

Other observations

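Chromosome 19, which is rich in genes, held 83 of the top 1% of peaks (13.6%) but 3.72% of all peaks. There 1 peak passed, KLHL26, and 57 of the 83 values were negative with a median of -0.09. Chromosome 21 held 30 peaks (4.93%, against 1.18% of all), of which 15 passed on the Down side.

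Of the 9 peaks with an SE of 0.60 or more, 0 passed. Besides the peaks near centromeres, they included 3 close to chromosome ends in the authors' deposited table: LINC01986 on chromosome 3 (0.73 ± 0.96), chr12:10082-10462 (0.35 ± 0.66) and chr22:50807919-50808502 (0.31 ± 0.61). A peak inside BRPF3, a scaffold of histone acetyltransferase complexes, had 0.75 ± 0.69 in the same deposited table. What sets these apart was not tested.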
